A study of Caenorhabditis elegans with 2 samples.

Results

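The 10 genes described here encode enzymes of the citric acid cycle in the nematode Caenorhabditis elegans. They are cts-1, aco-2, idha-1, idhb-1, idhg-1, ogdh-1, dlst-1, suca-1, fum-1 and mdh-2. The list was fixed by name, with earlier results of these data known. All 10 were found among the 19973 protein-coding nuclear genes of the Ensembl annotation. The question was where the homeodomain protein DVE-1 lay near them in late embryos. Chromatin immunoprecipitation and sequencing (ChIP-seq) gave 1 group with 2 biological replicates. Both replicates were whole hermaphrodite animals of strain OP398, of unknown age. The strain carries the allele unc-119(tm4063) and the integrated transgene wgIs398, from which DVE-1 is made with GFP and FLAG at its C terminus, and anti-GFP antibody was used for the precipitation. The promoter of the transgene is not given in the sources used here, and untagged worms were not analysed here. Because whole embryos were used, strong binding in few cells and weak binding in many cells cannot be told apart.

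The citric acid cycle runs in the mitochondrial matrix. It oxidises acetyl groups to carbon dioxide and passes the electrons to the respiratory chain, and its intermediates are also drawn off to build amino acids, sugars and lipids. All of its enzymes are encoded in the nucleus, made in the cytosol and imported. In worms, DVE-1 is known as a factor of the unfolded protein response of mitochondria, in which stress in these organelles raises the expression of nuclear genes for chaperones and proteases.

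The data were peak lists on the ce11 build. Each peak has a summit, the position the authors give for its maximum, and a signal, the authors' own enrichment value, which was compared only within a list. The pooled list was called on the reads of both replicates and held 30000 peaks and background regions. The thresholded list, filtered for reproducibility by the irreproducible discovery rate (IDR), held its 1447 strongest peaks, with signals of 78.9 and above and a median of 109.7. Replicate 1 had 11568 peaks and replicate 2 had 15750. The depth of the libraries is unknown, since peak lists give no read totals. A summit was counted for a gene when it lay between 1000 bp upstream and 200 bp downstream of the annotated 5′ end, and with a single group there was no contrast to test.

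A thresholded DVE-1-GFP summit lay at 5 of the 10 citric acid cycle genes, and the other 5 had only weaker summits. The 5 were cts-1, aco-2, idhb-1, idhg-1 and mdh-2, and over all protein-coding genes 4.33% had a thresholded summit. In order of the reactions, these encode citrate synthase, aconitase, the beta and gamma subunits of the NAD-dependent isocitrate dehydrogenase, and malate dehydrogenase. The genes without one encode the alpha subunit of isocitrate dehydrogenase (idha-1), the E1 and E2 components of the 2-oxoglutarate dehydrogenase complex (ogdh-1 and dlst-1), a beta subunit of succinyl-CoA ligase (suca-1) and fumarase (fum-1). Every one of the 10 had a summit in the pooled list, which 41.5% of all genes had. Each replicate's own list held a summit at 9 of the 10, against 22.5% of all genes in replicate 1 and 26.8% in replicate 2. In 8 of the 10 both replicates had one, at any position in the window, against 16.2% of all genes.

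The DNA at 4 of the 5 thresholded summits is shown because it carries most of the positions and words described for them. Each window was the summit with the 100 bases on either side. The lines give it 5′ to 3′ on the strand of the cycle gene, read from the RefSeq copy of the ce11 genome, without the stretch that is annotated as UTR. Capitals mark GCGCC on either strand. The lines cover chrIII:10216814-10217014 on the minus strand for cts-1, chrIII:4568626-4568796 on the plus strand for idhg-1 and chrIII:6608199-6608399 on the minus strand for mdh-2. The line for aco-2 covers chrIII:7973387-7973468 on the plus strand, which begins 19 bp downstream of the summit because the summit itself lies in the 5′ UTR of the neighbouring gene. The idhb-1 summit lies in a 5′ UTR and its window is not printed.
cts-1: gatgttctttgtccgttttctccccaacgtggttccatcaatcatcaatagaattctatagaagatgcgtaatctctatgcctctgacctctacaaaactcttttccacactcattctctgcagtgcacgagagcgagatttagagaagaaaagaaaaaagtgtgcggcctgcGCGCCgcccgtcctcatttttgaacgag
aco-2: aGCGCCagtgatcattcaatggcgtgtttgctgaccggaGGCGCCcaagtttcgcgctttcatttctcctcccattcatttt
idhg-1: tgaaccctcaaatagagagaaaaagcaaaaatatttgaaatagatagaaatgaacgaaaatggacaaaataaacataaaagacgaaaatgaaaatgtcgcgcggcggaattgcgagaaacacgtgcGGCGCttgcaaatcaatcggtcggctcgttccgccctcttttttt
mdh-2: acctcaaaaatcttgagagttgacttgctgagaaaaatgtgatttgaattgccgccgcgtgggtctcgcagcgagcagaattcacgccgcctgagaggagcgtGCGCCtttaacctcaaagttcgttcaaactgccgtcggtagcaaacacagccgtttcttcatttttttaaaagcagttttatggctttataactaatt

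The 5 windows had few of the searched motif words in common. Of the 10 words, searched on both strands, none was in more than 2 of the 5 windows. The idhg-1 window held the E-box CACGTG, which starts 19 bp downstream of the summit and was present in 4.65% of the 1440 windows around all nuclear thresholded summits. It also held GAGAGA (34.9% of all windows), CCGCCC (9.93%) and TTTCAG on the other strand (12.6%), the last in the stretch left out above. The cts-1 window held CCGCCC, which starts 76 bp downstream of its summit and shares bases with a GCGCC there. The aco-2 window held TTTCAG, 95 bp upstream of the summit and so outside its printed line. The mdh-2 window held TATAAA on the other strand (9.51%). The words TTAGGC (24.1% of all windows), the telomere repeat unit of this species, ATTGG (25.8%), GATAAG (8.06%), TAATTA (2.78%) and TGACGTCA (0.903%) were in none of the 5. The idhb-1 window held none of the 10 words.

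A search of all 512 words of 5 letters, made after the sequences were seen, found 11 that occurred in all 5 windows. The least common of the 11 among all thresholded windows was GCGCC, present in 25.8% of them and in 10.6% of windows of the same length centred 200 bp upstream of all protein-coding genes. In aco-2 it began 1 bp from the summit, before the printed line starts, and occurred at 4 places, of which a pair overlap on opposite strands. It began 3 bp from the summit in mdh-2, 24 bp in idhb-1, 26 bp in idhg-1 and 73 bp in cts-1. The next was CTCGC, in 31.7% of thresholded windows and 13.1% of promoter windows. The other 9 were in 32.1% to 67.4% of thresholded windows and in 32.7% to 93.2% of promoter windows. Of these 9, only GAGAA had the higher share in thresholded windows (54.5% against 53.3%). The share of G and C in the 5 windows ran from 37.3% to 48.3% with a median of 45.3%, against a median of 45.8% over all thresholded windows. A word is a description of these windows and not a binding site.

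Citrate synthase, which joins acetyl-CoA to oxaloacetate and so opens the cycle, is encoded by cts-1 (WBGene00000833, chromosome III, 10214771 to 10216635, minus strand). Its thresholded summit stood 279 bp upstream of the 5′ end, in intergenic sequence, with signal 107 at rank 764 of 1447. In replicate 1 its summit lay 288 bp upstream with signal 61.2, rank 360 of 11568, and in replicate 2 it lay 227 bp upstream with signal 41.9, rank 1863 of 15750. The gene was the first of the 10 by signal in replicate 1 and the fifth in replicate 2, so its place among the members differed between the replicates. Replicate 2 had another summit 434 bp upstream (signal 30.1). Near it, the pooled list had a summit 484 bp upstream of signal 34.7, weaker than the 107 of the main summit in that list. At the 3′ end of cts-1, a pooled summit of signal 46.4 lay where its 3′ UTR overlaps that of the neighbouring gene best-18. Another, of signal 55.9, lay beyond cts-1 in a coding exon of best-18, and neither was thresholded.

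Aconitase, which turns citrate into isocitrate, is encoded by aco-2 (WBGene00000041, chromosome III, 7973717 to 7977355, plus strand). Its summit was the weakest of the 5, with signal 84.0 at rank 1284 of 1447, and lay 349 bp upstream of aco-2. The same summit lay 18 bp inside the divergent gene eef-1B.1 (7972382 to 7973386), in its 5′ UTR. That gene encodes a subunit of translation elongation factor 1, and its 5′ end is 331 bp from that of aco-2. An exon of the non-coding RNA gene F54H12.9 is annotated over the summit too. The summit was at the same base in replicate 1 (signal 25.9, rank 2892 of 11568) and 11 bp away in replicate 2 (signal 57.1, rank 999 of 15750). When a summit was given only to the gene with the nearest 5′ end, it went to eef-1B.1, and 4 of the 10 cycle genes were left with one, against 3.15% of all genes.

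The 3 subunit genes of the NAD-dependent isocitrate dehydrogenase, which makes 2-oxoglutarate and releases carbon dioxide, were not alike. The beta subunit gene idhb-1 (WBGene00007993, X, 14170730 to 14174063, minus strand) had signal 100.3, rank 888 of 1447. Its values were 40.4 in replicate 1 (rank 1026 of 11568) and 60.1 in replicate 2 (rank 900 of 15750). The summit lay 21 bp inside the longer of the 2 transcripts that Ensembl annotates, in its 5′ UTR. The shorter transcript and the RefSeq model begin 674 bp further downstream, and from there the summit stood 653 bp upstream. No other gene's window held this summit. Another thresholded summit, of signal 120.5 at rank 580, stood 4241 bp downstream of the idhb-1 5′ end, outside the gene and in the window of sym-4.

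The gamma subunit gene idhg-1 (WBGene00009440, chromosome III, 4568797 to 4571865, plus strand) had signal 98.2, rank 924 of 1447, at a summit 71 bp upstream. The signals were 29.9 in replicate 1 (rank 2086 of 11568) and 63.1 in replicate 2 (rank 819 of 15750). RefSeq places its 5′ end 216 bp further downstream, which puts the summit 287 bp upstream. The summit also lay in the window of the divergent gene mlcd-1 (4566275 to 4568130), 596 bp upstream of it, and mlcd-1 encodes the mitochondrial enzyme malonyl-CoA decarboxylase. The alpha subunit gene idha-1 (WBGene00009664, chromosome I, 8606549 to 8608631) had no thresholded summit. Its pooled summit, 276 bp upstream, had signal 48.3 at rank 3828 of 30000. Replicate 2 had a summit at the same base (signal 41.8, rank 1866 of 15750), and replicate 1 had none in the window.

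Malate dehydrogenase, which closes the cycle by regenerating oxaloacetate, is encoded by mdh-2 (WBGene00003162, chromosome III, 6606544 to 6608106, minus strand). Its thresholded signal was the highest of the 5, at 109.5 and rank 726 of 1447, from a summit 193 bp upstream. Both replicates had the summit within 16 bp of that position, with signal 42.3 in replicate 1 (rank 926 of 11568) and 68.0 in replicate 2 (rank 709 of 15750). The gene was second of the 10 in replicate 1 and first in replicate 2. The summit was shared with the divergent gene F20H11.4, 323 bp away, which RefSeq describes as a protein-tyrosine phosphatase. A pooled summit of signal 70.4 (rank 1825 of 30000) stood 1872 bp downstream of the 5′ end, past the end of mdh-2 and in intergenic sequence.

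**Figure D1:**
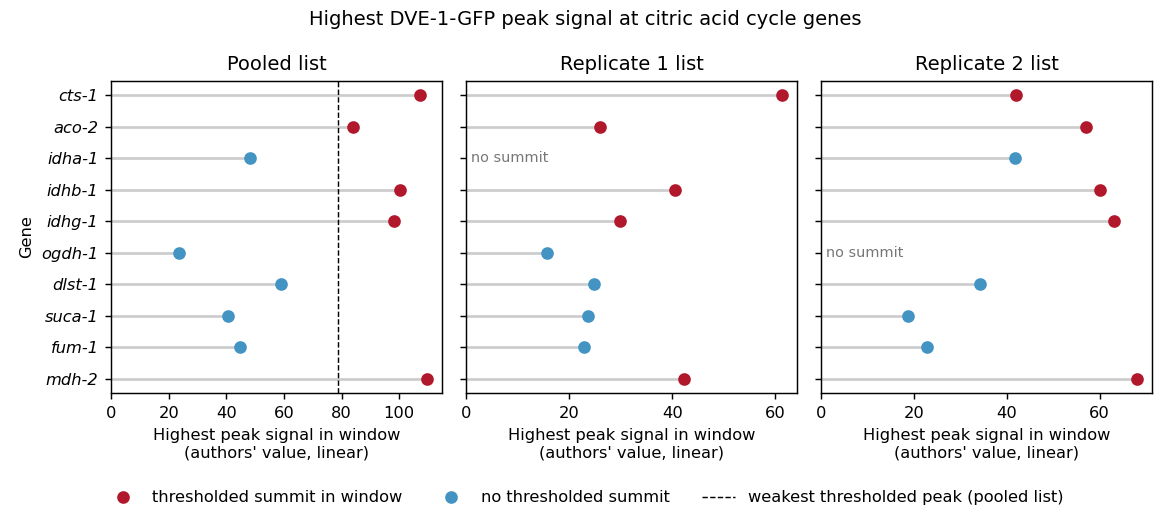
Highest peak signal (authors' value, linear axis) in the promoter window of each of the 10 genes, in the pooled list and in each replicate's own list; red points are genes with a thresholded summit, blue points are genes without one, and the dashed line is the weakest thresholded signal, 78.9. In the pooled list the red points lie between 84.0 and 109.5 and the blue points between 23.4 and 58.9, and the red points are also the upper 5 in each replicate, though in replicate 2 idha-1 (41.8) almost equals cts-1 (41.9).

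The weaker members covered a wide range of signals. For dlst-1, the E2 component that moves the succinyl group to coenzyme A (WBGene00020950, chromosome V, 6707056 to 6709101), the pooled summit 126 bp upstream had signal 58.9 at rank 2598 of 30000. Its signals were 24.8 in replicate 1 and 34.1 in replicate 2, at summits 121 bp and 209 bp upstream. It was the closest of the 5 to the weakest thresholded signal. An exon of the non-coding RNA gene W02F12.11 is annotated over the pooled summit.

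Fumarase, which hydrates fumarate to malate, is encoded by fum-1 (WBGene00001503, chromosome III, 7465605 to 7467640). It had a pooled summit 55 bp upstream, with signal 44.9 at rank 4494 of 30000. The signals were 22.8 in replicate 1 and 22.7 in replicate 2, but the summits stood 214 bp and 65 bp upstream, so the position differed more between the replicates than at the 5 thresholded genes. The gene suca-1 (WBGene00009812, X, 10897678 to 10900114) encodes the ADP-forming beta subunit of succinyl-CoA ligase, which makes a nucleoside triphosphate directly. It was the only 1 of the 10 with 3 pooled summits in its window, at 156 bp, 484 bp and 975 bp upstream, with signals of 28.8, 25.4 and 40.7. The highest signal in the window was 23.6 in replicate 1, at 790 bp upstream, and 18.6 in replicate 2, at 482 bp upstream. A replicate 2 summit of signal 28.4 lay 1005 bp upstream, just outside the window, and 2 further pooled summits stood 1928 bp (61.2) and 3490 bp (53.6) upstream.

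The weakest value belonged to ogdh-1 (WBGene00020679, chromosome IV, 4696979 to 4704011), which encodes the E1 component that decarboxylates 2-oxoglutarate. Its pooled summit, 281 bp upstream, had signal 23.4 at rank 20271 of 30000. Replicate 1 had a summit 303 bp upstream with signal 15.6, rank 11010 of 11568, and replicate 2 had none in the window. In the pooled list, 67.7% of all protein-coding genes had a lower highest signal or no summit. None of these 5 genes had a thresholded summit nearby outside the window: the nearest were 32985 bp from the 5′ end of fum-1, 43398 bp from ogdh-1, 52243 bp from dlst-1, 63707 bp from suca-1 and 78454 bp from idha-1.

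**Figure D2:**
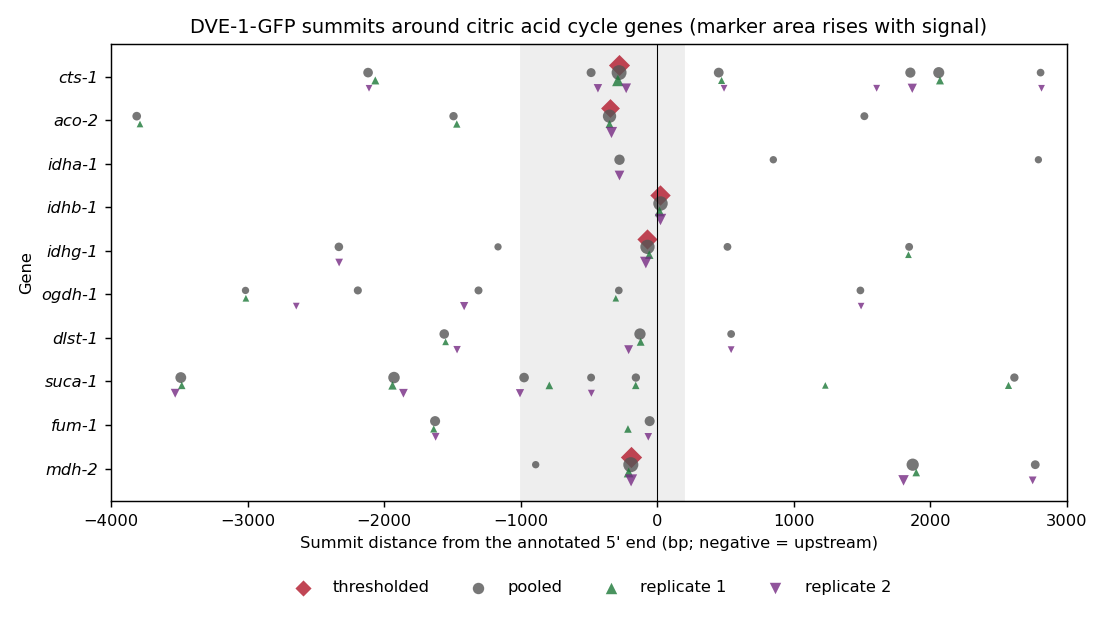
Distance of each summit from the annotated 5′ end of the 10 genes (horizontal axis, bp, negative upstream) in the thresholded, pooled, replicate 1 and replicate 2 lists, with marker area rising with the signal in each list and the promoter window in grey. Inside the window the thresholded summits (red) lie between 349 bp upstream and 21 bp downstream, while the pooled summits of suca-1 are spread over its window and beyond.

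At the 5 thresholded genes the position recurred closely between the replicates. All 5 peaks overlapped a peak in both replicates, also when at least 50% of each peak had to overlap and when the summits had to lie within 100 bp. Over all nuclear thresholded peaks the shares were 99.2%, 96.1% and 94.7%, so this recurrence was near that of the whole list. The distance from the thresholded summit to the replicate's summit was 0 to 16 bp in replicate 1. It was 0 to 12 bp in replicate 2 at 4 of the genes and 52 bp at cts-1. The thresholded list was itself made from both replicates' reads, so these overlaps are a description.

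The strongest pooled summit lay between 350 bp upstream and 50 bp downstream of the 5′ end at 9 of the 10 genes, suca-1 being the exception, and at 48.7% of the 8286 genes with a pooled summit. That range was set after the positions were seen. The median distance from the 5′ end, negative upstream, was -234.5 bp for the 10 genes and -280.0 bp for all genes with a pooled summit. At 8 of the 10 genes the most upstream annotated start codon lies within 30 bp of the annotated 5′ end, against 62.0% of all genes. At 7 of the 10 the bases just before that end are AG, as at a splice acceptor, against 27.6% of all genes. Many C. elegans transcripts are trans-spliced to a short leader, and an annotated 5′ end need not be the start of transcription. Measured from the start codon instead, the 5 thresholded summits stood 196 bp (mdh-2), 297 bp (cts-1), 298 bp (idhg-1), 357 bp (aco-2) and 654 bp (idhb-1) upstream.

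The upstream neighbour is transcribed away from the cycle gene at 6 of the 10 genes, against 45.4% of all protein-coding genes. It is so at 4 of the 5 with a thresholded summit, against 68.2% of all genes with one. At 3 of the 5 the summit also fell in the neighbour's window, as given above for eef-1B.1, mlcd-1 and F20H11.4. There it cannot be assigned to the cycle gene alone. How often a thresholded summit is shared in this way over all genes is not given here. Whether 3 of 5 is particular to these genes is therefore not known. Only the summits of cts-1 and idhb-1 lay in no other protein-coding gene's window.

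By signal, none of the thresholded cycle genes ranked above the middle of the thresholded list. All 5 signals, from 84.0 to 109.5, were below that list's median of 109.7, mdh-2 by a small margin. Their median was 100.3, against 108.4 over the 865 genes with a thresholded summit. Within the pooled list the median of the highest pooled signal was 71.4 over the 10 genes and 32.1 over the 8286 genes with a pooled summit. Of those 8286 genes, 94.9% had a lower value than mdh-2, 94.7% a lower value than cts-1 and 22.1% a lower value than ogdh-1.

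**Figure D3:**
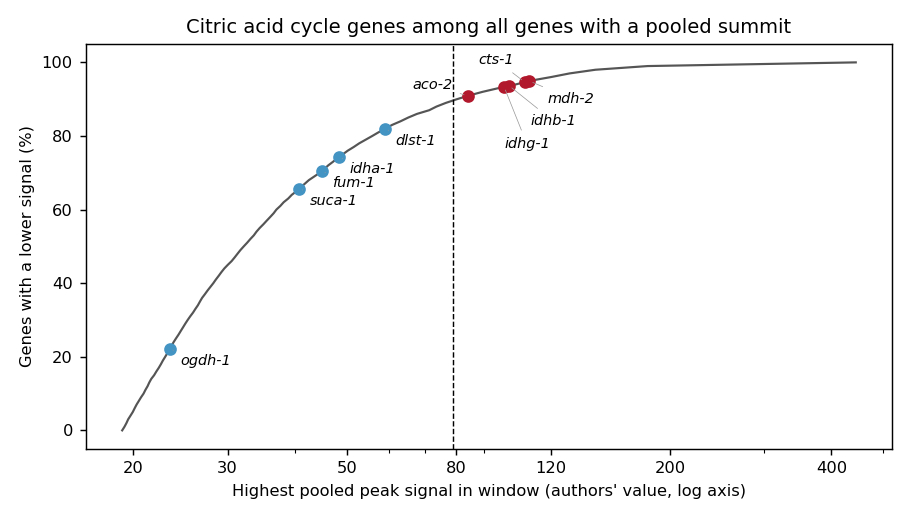
Share of the 8286 genes with a pooled summit that had a lower highest signal (vertical axis, %) against that signal (authors' value, log axis), with the 10 cycle genes marked, red where they have a thresholded summit and blue where they do not; the dashed line is the weakest thresholded signal, 78.9. The 5 red genes lie above 90% and the blue ones run from 22.1% at ogdh-1 to 82.0% at dlst-1.

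Each replicate was also taken alone, through its own 1447 strongest peaks. In replicate 1, 3 of the 10 genes had a summit among them (cts-1, idhb-1 and mdh-2), against 4.32% of all genes. In replicate 2 there were 4 (aco-2, idhb-1, idhg-1 and mdh-2), against 4.16% of all genes. Only idhb-1 and mdh-2 were in both sets, which 2.84% of all genes were. The other 3 thresholded genes were among the strongest in 1 replicate only, cts-1 in replicate 1 and aco-2 and idhg-1 in replicate 2.

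Other genes of the pathway were described from 4 lists, whose members all matched an annotated gene. Of 14 further genes of the cycle, cytosolic isoforms included, 3 had a thresholded summit, against 4.33% of all genes. The highest signal was at dld-1 (183, rank 193 of 1447, 269 bp upstream), which encodes the E3 component that the 2-oxoglutarate and pyruvate dehydrogenase complexes share. Its signals were 75.3 in replicate 1 and 105.8 in replicate 2. The other two were mev-1 (98.0, 139 bp upstream), a membrane subunit of succinate dehydrogenase, and sucl-1 (83.5, 299 bp upstream), an alpha subunit of succinyl-CoA ligase. The mev-1 summit was shared with jmjd-4.

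The partner subunits of those enzymes had weaker summits or none. In succinate dehydrogenase, sdha-1 had a pooled signal of 71.6 and sdhb-1 of 33.9, while sdhd-1 and sdha-2 had no pooled summit in their windows. In succinyl-CoA ligase, the beta subunit genes were suca-1, given above, and sucg-1, which had no pooled summit. The cytosolic enzymes aconitase (aco-1, 52.7), isocitrate dehydrogenase (idh-1, 55.4) and malate dehydrogenase (mdh-1, 39.4) had pooled summits and no thresholded one.

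Upstream of the cycle, 1 of 9 genes of pyruvate entry had a thresholded summit. This was pdhk-2 (162, rank 270 of 1447, 258 bp upstream), the kinase that switches off pyruvate dehydrogenase. Of the pyruvate dehydrogenase subunit genes, pdhb-1 had a pooled signal of 60.3, and pdha-1 and dlat-1 had no pooled summit. Pooled signals of other genes on this list were 37.6 at pdp-1, 31.7 at dlat-2 and 22.1 at mpc-2. Of 14 genes that feed or drain the cycle, 1 had a thresholded summit, misc-1 (87.1), a mitochondrial carrier gene. That summit stood 834 bp upstream, in an intron of B0432.10. Among 19 glycolysis genes there was none, and their highest pooled signal was 62.1, at the hexokinase gene hxk-3. Of all protein-coding genes 4.33% had a thresholded summit, so counts of 1 or none in lists this short were not far from that share.

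The median of the highest pooled signal, with genes without a summit set to 0, was 71.4 for the 10 genes, 37.5 for the 14 further cycle genes, 22.1 for pyruvate entry, 36.1 for genes that feed or drain the cycle and 23.5 for glycolysis. Over all 19973 protein-coding genes, set to 0 in the same way, it was 0. Both replicate lists held a summit at 8 of the 10 genes, at 9 of the 14 further cycle genes, at 3 of 9 for pyruvate entry, at 4 of 14 that feed or drain the cycle and at 3 of 19 for glycolysis. Over all protein-coding genes the share was 16.2%, and the glycolysis count was near it. Differences between the lists were not tested.

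**Figure D4:**
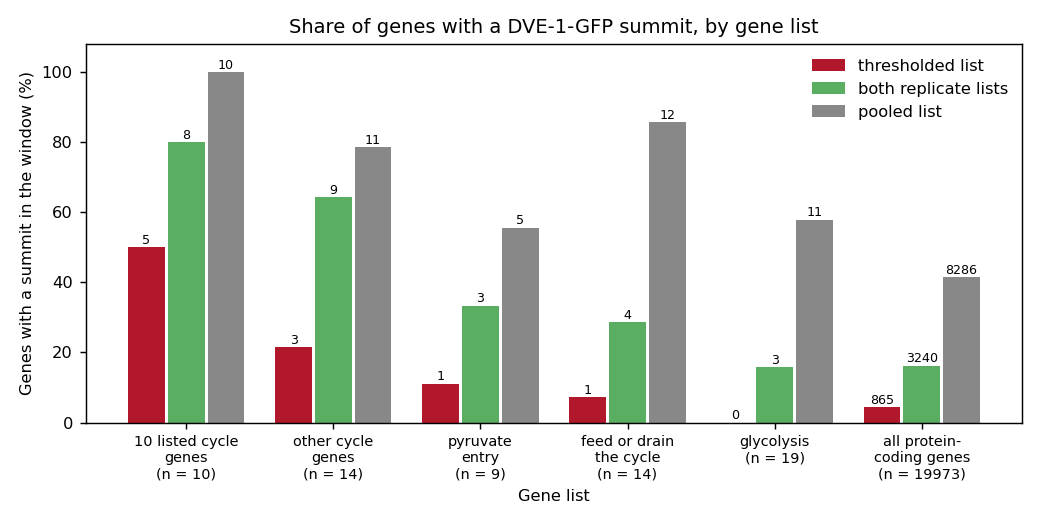
Share of genes (vertical axis, %) with a summit in the promoter window in the thresholded list, in both replicate lists and in the pooled list, for the 10 cycle genes, 4 further gene lists and all 19973 protein-coding nuclear genes; the number over each bar is the count of genes. In the thresholded list the counts are 5 of 10, 3 of 14, 1 of 9, 1 of 14 and 0 of 19, against 865 of all genes.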

How the data were processed

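ChIP-seq peak lists of 2 biological replicates of late embryos were used. Per the text descriptions deposited with the files, the authors made 1 list per replicate, 1 list on both alignments together and 1 IDR-thresholded list, with 1 control alignment for all. Which aligner and peak caller were run, and with which IDR threshold, is not given in the sources used here. Each signal is the authors' deposited value per peak, and the summit offset is the deposited distance in bases from the peak's start. Lists in ce10 were not used.

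The 1447 thresholded peaks were identical to the 1447 strongest pooled peaks. Summits were assigned to windows around Ensembl gene records, over 19973 protein-coding nuclear genes, and sequences were read from the RefSeq genome of the same assembly. The rank of a peak is its place by signal within its own list. The assignment was tested on simulated data with 200 summits (seed 1). The 10 genes, the gene lists, the motif words and the rule for named genes were chosen with earlier results of these data known. The rule takes the 10 genes, genes whose window holds the same summit, and list genes with a thresholded summit. Other genes, among them partner subunits and neighbours, were named after their values were seen. No test was made, and members are not replicates. Python 3.11.15, numpy 2.4.6, pandas 2.3.3 and matplotlib 3.10.9 were used. Alternatives covered other windows, 5′ ends, peak subsets, overlap rules and each replicate alone.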

Additional observations from a re-analysis of the deposited data

How the results depend on the processing

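The count of 5 cycle genes with a thresholded summit was also 5 with a narrow window (500 bp upstream, 100 bp downstream) and a wide one (2000 bp upstream, 500 bp downstream), at every transcript's 5′ end, at the most upstream start codon, at the RefSeq 5′ end (chosen after seeing the data), with any base of the peak in the window, and without summits near tRNA or snoRNA genes or on telomere-like repeats. Across these settings the share of all genes ran from 3.29% with the narrow window to 6.19% with the wide one. The count was 4 with the nearest 5′ end only, where aco-2 was lost, against 3.15% of all genes. Limited to thresholded peaks above the median signal, 0 of the 10 had one, against 2.08% of all genes. With 1 replicate left out the count ran from 3 to 4, against 4.16% of all genes without replicate 1 and 4.32% without replicate 2. The count with summits in both replicates, 8, was 2 among each replicate's 1447 strongest peaks, against 2.84% of all genes. It was 9 with the wide window (24.4% of all genes) and 9 at every transcript's 5′ end (18.2%). The pooled count ran from 9 to 10, while the share of all genes ran from 26.8% in the stronger peaks of the pooled list to 57.3% with the wide window. For the other lists, the alternatives were all chosen after seeing the data. The count of further cycle genes was 1 above the median signal and 2 with the nearest 5′ end only. It ran from 2 to 4 with 1 replicate left out. The count of genes that feed or drain the cycle was 0 with the narrow window, above the median signal, with the nearest 5′ end only and without replicate 2, running from 0 to 1. That of glycolysis genes was 1 with the wide window (gpd-4). The shares of all genes given above for each setting hold for these lists as well. No paired analysis was possible because there is 1 group. Depth is unknown, so no limit on detection can be given.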
